A study of Rattus norvegicus with 14 samples.

Results

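The vomeronasal receptor genes of the rat were followed in the choroid plexus (CP), a vascular tissue inside the brain ventricles whose epithelial cells secrete cerebrospinal fluid. Members were all genes whose probe accession mapped to a symbol beginning with Vom1r or Vom2r. They came to 113 of the 15154 genes that could be named, 49 of the V1R family (Vom1r) and 64 of the V2R family (Vom2r), read by 139 probes. CP of both lateral ventricles came from Wistar rats that were 2 months old when they were ovariectomized (OVX), orchidectomized (OOX) or sham-operated, and it was taken 2 weeks after surgery. Each 1-colour array held RNA pooled from 3 animals, with 3 OVX and 3 sham pools in females and 4 OOX and 4 sham pools in males. The levels below are probe signals, given as log2 of the intensity minus the median of the array's rat probes, so that 0 is the signal of a median probe.

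Vomeronasal receptors are G protein-coupled receptors known from the sensory neurons of the vomeronasal organ, where they bind pheromones and other chemical cues. V1R genes are mostly encoded by 1 coding exon and signal through the G protein subunit encoded by Gnai2, while V2R proteins have a long extracellular ligand-binding domain and signal through the product of Gnao1. Both lead to opening of the Trpc2 cation channel. In many of these neurons a single receptor of a large repertoire is expressed, and the genes lie in clusters among many pseudogenes. The RefSeq gene table used for names lists 378 genes and pseudogenes with these symbols, 184 of them with a transcript.

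Most receptor probes were dim. A probe is called well above background where the scanner software judged its signal to exceed the local background by a set margin. By this measure 21 of the 113 receptors (18.6%) were detected on all 14 arrays, 46 (40.7%) on 1 to 13 arrays and 46 (40.7%) on no array. Over all named genes the shares were 75.4%, 15.7% and 8.90%. The V1R family had 7 of 49 members on every array and 26 on none, and the V2R family 14 of 64 and 20. Mean signals of the 21 detected on every array ran from -3.32 to 4.37, and those of the 46 detected on none from -6.70 to -5.36. The medians of the negative control spots lay between -6.92 and -5.93, in the same range as the dim receptors.

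**Figure D1:**
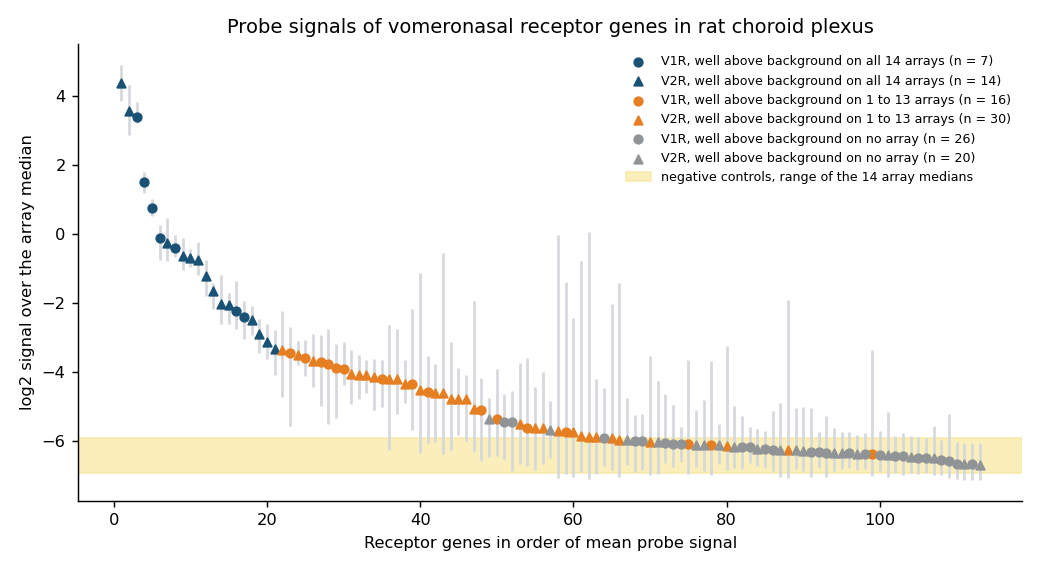
Mean log2 signal over the array median (y axis) of the 113 receptor genes in order of that mean (x axis), with grey bars from the lowest to the highest of the 14 arrays, and with family as symbol and detection as colour. The 21 receptors detected on all 14 arrays lie at -3.32 or above, and the yellow band marks the negative controls, -6.92 to -5.93.

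To show the receptors the results turn on, the 250 bases before the annotated start of 5 of them are printed from RefSeq (build GRCr8), on the gene's strand. Vom1r55 had the strongest V1R signal, Vom1r73 and Vom2r54 were measured on every array and rose in OVX females, Vom1r8 was detected in all OVX and in no sham females, and Vom1r45 was detected on no array. Capitals mark the letters TAATTA and TATAAA, the latter on either strand.
Vom1r55, chr1:82795423-82795672, plus strand: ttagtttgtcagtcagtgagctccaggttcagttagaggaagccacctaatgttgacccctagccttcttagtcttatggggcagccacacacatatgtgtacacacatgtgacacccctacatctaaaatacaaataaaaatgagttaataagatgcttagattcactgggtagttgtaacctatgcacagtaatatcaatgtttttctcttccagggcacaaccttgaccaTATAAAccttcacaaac
Vom1r73, chr4:88014690-88014939, plus strand: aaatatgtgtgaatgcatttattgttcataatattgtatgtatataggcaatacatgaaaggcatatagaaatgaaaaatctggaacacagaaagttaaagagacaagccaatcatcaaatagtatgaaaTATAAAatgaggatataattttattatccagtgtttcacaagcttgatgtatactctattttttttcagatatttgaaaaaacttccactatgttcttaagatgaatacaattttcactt
Vom2r54, chr7:13567841-13568090, plus strand: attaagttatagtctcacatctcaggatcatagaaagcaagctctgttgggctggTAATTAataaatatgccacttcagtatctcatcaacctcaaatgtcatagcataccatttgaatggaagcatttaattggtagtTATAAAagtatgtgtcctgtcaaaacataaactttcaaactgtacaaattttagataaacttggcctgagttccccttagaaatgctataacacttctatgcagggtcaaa
Vom1r8, chr1:68574722-68574971, plus strand: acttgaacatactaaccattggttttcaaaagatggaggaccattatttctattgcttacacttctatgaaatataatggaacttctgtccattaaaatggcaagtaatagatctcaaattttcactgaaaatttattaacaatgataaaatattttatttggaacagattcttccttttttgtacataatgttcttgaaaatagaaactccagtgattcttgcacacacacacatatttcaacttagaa
Vom1r45, chr1:81362613-81362862, plus strand: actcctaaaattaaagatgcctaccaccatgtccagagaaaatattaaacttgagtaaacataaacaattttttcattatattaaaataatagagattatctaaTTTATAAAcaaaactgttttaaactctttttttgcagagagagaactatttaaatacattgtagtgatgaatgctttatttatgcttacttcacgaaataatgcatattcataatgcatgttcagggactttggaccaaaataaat
The annotated start is the ATG in 70 of the 106 receptors with such a window, Vom1r55 and Vom1r73 among them, so that the window then lies before the coding sequence and not necessarily before the start of transcription. Receptor windows were poor in G and C, with a median of 37.2% against 52% in the 27455 windows of all genes, and 46 of 106 (43.4%) held no CG dinucleotide, against 7.53%. TAATTA, which reads the same on both strands, was in 24 of the 106 (22.6%, against 4.94% of all windows), and TATAAA, searched on both strands, in 34 (32.1%, against 13.1%). Both letter runs hold only A and T, and the part of base composition in these shares was not tested. Receptors detected on all 14 arrays had TAATTA in 5 of 20 windows and TATAAA in 6 of 20. In those detected on no array the counts were 8 and 16 of 43. A match of letters is a description of the window only.

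The strongest receptor signals came from Vom2r34, Vom2r15 and Vom1r55. A probe's signal depends on its own sequence as well as on the transcript, so the order of signals is not an order of transcript amounts. Vom2r34 read 4.57, 4.34 and 4.03 in sham females, 4.87, 4.33 and 4.39 in OVX, 4.06, 4.91, 4.60 and 4.24 in sham males and 3.87, 4.29, 4.03 and 4.73 in OOX. The groups overlapped in both sexes. Vom2r15 read 3.71, 4.32 and 3.35 in sham females and 3.50, 2.86 and 3.55 in OVX, while sham males read 3.47 to 3.90 and OOX males 3.30 to 3.84, again with overlap. Vom1r55 varied least of these among females, with means of 3.42 ± 0.05 (SD, n = 3) in sham females, 3.33 ± 0.06 (n = 3) in OVX, 3.37 ± 0.19 (n = 4) in sham males and 3.46 ± 0.28 (n = 4) in OOX. Over the 14 arrays the ranges of Vom2r34 (mean 4.37) and Vom2r15 (3.57) overlapped, as did those of Vom2r15 and Vom1r55, and differences between probes were not tested.

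Of the other receptors detected on every array, Vom1r23 (1.51) and Vom1r61 (0.76) had a mean signal above the median probe. Vom1r37 (-0.13), Vom2r35 (-0.25), Vom1r30 (-0.41), Vom2r18 (-0.63), Vom2r56 (-0.69) and Vom2r55 (-0.77) followed close to each other, and neighbours in this run overlapped over the arrays. Gaps without overlap lay between Vom1r55 and Vom1r23, between Vom1r23 and Vom1r61 and between Vom1r61 and Vom1r37. Vom2r12 (-1.23), Vom2r47 (-1.67), Vom2r8 (-2.04) and Vom2r48 (-2.05) were dimmer, and Vom1r100, Vom1r73, Vom2r36, Vom2r72, Vom2r41 and Vom2r54 filled the lowest places, from -2.24 to -3.32. Within groups these 21 receptors had a median SD of 0.25, near the 0.23 of all genes detected on every array. The lowest was 0.10 in Vom1r30 and the highest 0.39 in Vom2r8. For receptors detected on 1 to 13 arrays the median SD was 0.72, against 0.70 in genes of that class.

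A second probe did not always see what the brightest one saw. Among the 21 receptors, 8 had 9 further probes, of which 1 was detected on all 14 arrays, 4 on none and 2 on 1 array. The other probe of Vom2r34 was detected on all 14 arrays. Those of Vom2r15, Vom2r48 and Vom2r41 were detected on none, with mean signals of -6.49, -6.65 and -6.47. The further probes of Vom2r18 and Vom2r56 were detected on 1 array each, that of Vom2r36 on 5, and those of Vom2r72 on 13 and on 0.

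In gene order on GRCr8, used here only to see which genes neighbour each other, 17 of the 21 receptors detected everywhere had another gene or pseudogene of the vomeronasal families directly beside them, as had 39 of 46 in each of the other classes. Detection differed between direct neighbours in several places. Vom2r34 (14 arrays) stood beside Vom2r33 (1 array), and Vom1r37 (14 arrays) beside Vom1r36 (0 arrays). Vom2r35 and Vom2r36, and likewise Vom2r54 and Vom2r55, were neighbours detected on all 14 arrays. Vom1r55 had Mzf1, a zinc finger gene also detected on all 14 arrays, at its side.

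The number of receptors detected on an array differed between groups. It was 28, 29 and 26 in sham females and 45, 44 and 47 in OVX, with no overlap. In males it was 30, 35, 47 and 26 in sham and 42, 44, 39 and 43 in OOX, where sham replicate 3 stood above every OOX array. On the slide that held an array of each female group, 26 receptors were detected in sham replicate 3 and 45 in OVX replicate 1. Between the female groups the negative control spots shifted as well. Their median was -5.93, -6.34 and -5.97 in sham females and -6.79, -6.92 and -6.91 in OVX, a mean shift of -0.79, whereas sham male arrays spanned -6.81 to -5.94 and OOX arrays -6.72 to -6.24, with a mean shift of -0.11. Sham male replicates 1 to 4 had control medians of -6.72, -6.31, -6.81 and -5.94, with 30, 35, 47 and 26 receptors detected. OOX replicates 1 to 4 had -6.59, -6.68, -6.24 and -6.72, with 42, 44, 39 and 43. The part of the control shift in the number detected was not tested. Over all spots, 79.7%, 82.7% and 80.6% were well above background in sham females and 85.3%, 86.5% and 87.2% in OVX, also without overlap. In males these shares were 80.3% to 85.7% in sham and 83.5% to 86.5% in OOX.

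**Figure D2:**
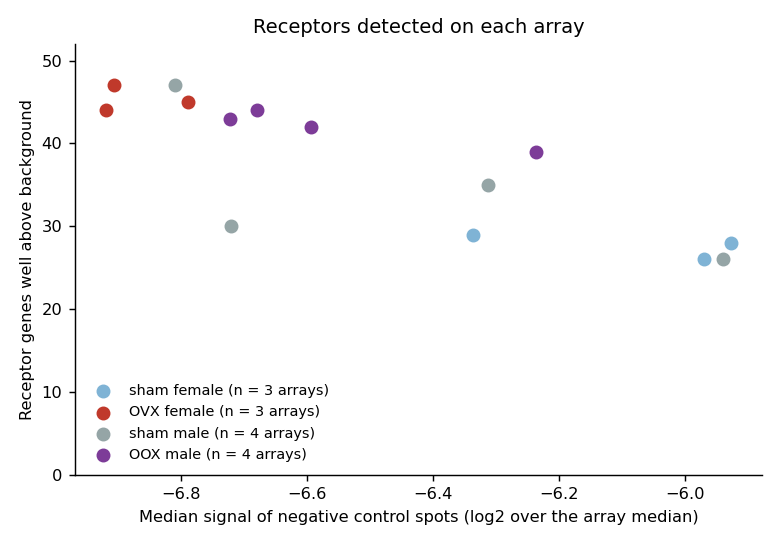
Receptor genes well above background (y axis) on each of the 14 arrays against the median log2 signal of that array's negative control spots over the array median (x axis), with points coloured by group. OVX arrays sit at 44 to 47 receptors with controls of -6.79 or below, and sham female arrays at 26 to 29 with controls of -6.34 or above.

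OVX was compared with sham females to see which receptors responded to loss of the ovaries. At an adjusted p under 0.05 (limma with Benjamini-Hochberg adjustment over 27517 genes and unnamed probes), 7 receptors were higher and 20 lower in OVX. The shares were 6.19% higher, against a background of 2.73% of all features, and 17.7% lower, against 4.47%. Of all features, 7.2% were called in either direction. These backgrounds were not matched for detection. Among those detected on some female arrays, 4 of 38 receptors were higher, against 362 of 3856 features. On no female array it was 1 of 54 against 56 of 3776, and on every female array 2 of 21 against 334 of 19885. Whether receptors rose more often than features of their class was not tested. At an unadjusted p under 0.05 the counts were 20 higher (17.7%) and 36 lower (31.9%), against 12.1% and 10.2% of all features (22.3% in both directions). The median difference of the 113 receptors was -0.08, against -0.04 for all features. Of the 7 receptors that were higher, Vom1r73 and Vom2r54 were well above background on all 6 female arrays, and each of the 20 lower ones was well above background on none.

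Vom1r73 read -2.67, -2.88 and -2.71 in sham females and -2.25, -1.94 and -2.03 in OVX. All 3 OVX arrays lay above the sham arrays, and the receptor rose by 0.69 (SE 0.14, adjusted p = 0.0415). Vom2r54 read -3.77, -3.44 and -3.64 in sham and -2.82, -3.07 and -2.78 in OVX, also without overlap, and rose by 0.73 (SE 0.15, adjusted p = 0.0418). The difference on the slide shared by both groups was 0.46 for Vom1r73 and 0.83 for Vom2r54, with 1 array of each. Under 19 alternatives both differences stayed above 0, and the adjusted p ran from 0.0410 to 0.663 for Vom1r73, which passed in 5, and from 0.0414 to 0.812 for Vom2r54, which passed in 6.

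Vom1r8 and Vom2r50 were detected on all 3 OVX arrays and on no sham female array. Vom1r8 read -5.01, -4.40 and -4.95 in sham and -3.67, -3.73 and -3.77 in OVX, which is at least 1.17-fold higher (adjusted p = 0.0401). Vom2r50 read -5.08, -4.89 and -5.78 in sham and -3.91, -3.91 and -3.86 in OVX, at least 1.04-fold higher (adjusted p = 0.0401). Under 19 alternatives the call of Vom1r8 held in 8, with a log2 difference down to 0.0694 and an adjusted p up to 0.950. That of Vom2r50 held in 7, with a difference down to 0.0138 and an adjusted p up to 0.993. Both folds are bounds from the main fit and carry no sampling error. A bound sets the bright group's mean against, on each dim array, the lowest signal that was well above background there or the probe's own signal, whichever was higher. The remaining higher calls were Vom1r98, detected on 2 OVX arrays, Vom2r33, detected on 1, and Vom2r30, detected on no array, all with an adjusted p of 0.0401 and with no fold, since the OVX mean did not clear that limit. Vom1r98 read -5.81, -6.44 and -5.43 in sham and -4.51, -3.92 and -4.56 in OVX.

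**Figure D3:**
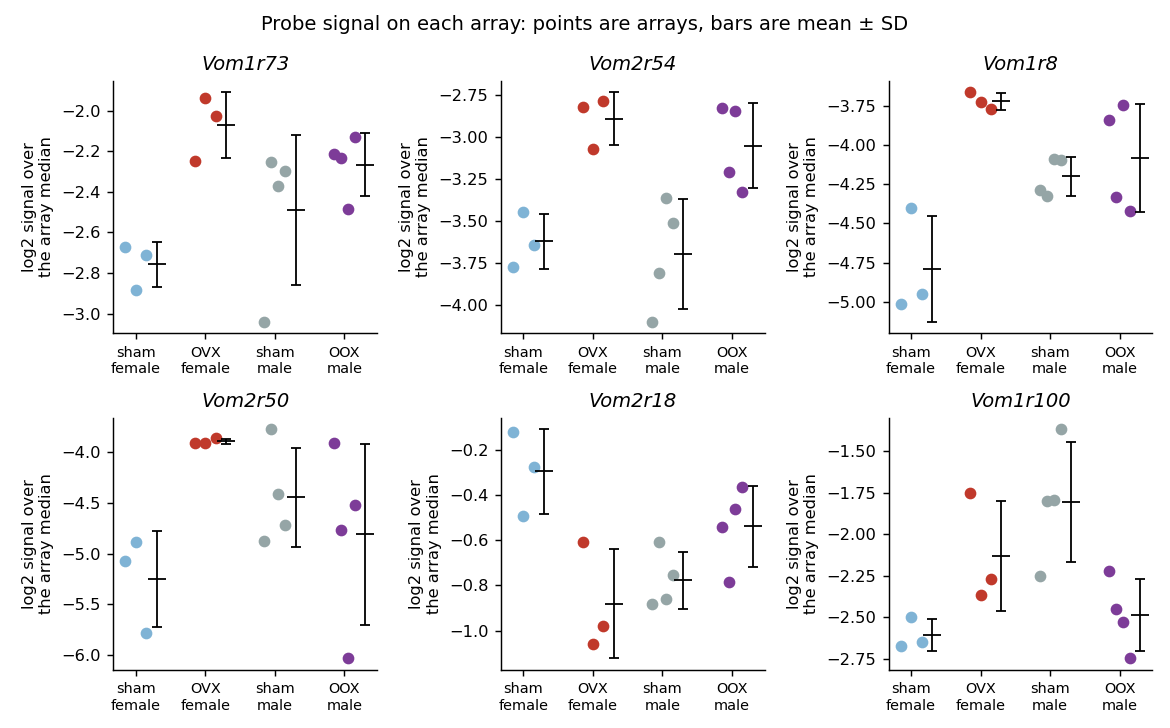
Log2 signal over the array median (y axis) of 6 receptors on each array (points), by group (x axis), with the mean and SD of the group (bars; n = 3 in female and 4 in male groups). Vom1r73 and Vom2r54 lie higher on all 3 OVX arrays than on the 3 sham female arrays, and Vom1r8 and Vom2r50 do so with sham signals that were not well above background.

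By detection alone, 9 receptors were well above background on every OVX array and on no sham female array, 7.96% of the 113 against 2.54% of all features, and 0 receptors showed the opposite, as did 0.0218% of all features. Besides Vom1r8 and Vom2r50 these were Vom1r104, Vom1r6, Vom2r24, Vom2r51, Vom2r63, Vom2r19 and Vom2r28, whose adjusted p lay between 0.111 and 0.568. Their bounds came to 1.17-fold for Vom1r104, 1.15-fold for Vom1r6, 1.11-fold for Vom2r24 and 1.03-fold for Vom2r51, and the others had none. These are ratios of group means without sampling error, so for differences that did not pass they are no lower limit of a rise. Arrays of both groups overlapped in Vom1r104, Vom1r6 and Vom2r51. Vom2r19, one of the pair of receptors that the study's own gene tables name, read -4.69, -4.56 and -4.52 in sham and -4.26, -4.21 and -4.16 in OVX, a difference of 0.38 (SE 0.12, adjusted p = 0.111). The other receptor of that pair, Vom1r56, had no probe matched to it. Detection depends on the background of the array, which lay lower in OVX by the controls given above. Only features detected on some but not all female arrays can be on every OVX and no sham array. This class held 38 receptors, of which 9 met the condition, and 3856 of all features, of which 700 did.

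The 20 receptors called lower, 12 V1R and 8 V2R, were below the detection limit in both groups, so no fold is given. Their fitted differences were -1.21 to -0.71 with a median of -0.80, next to the shift of -0.79 in the negative controls, and their adjusted p ran from 0.0401 to 0.0493. Those with the smallest p were Vom1r69, Vom2r37, Vom1r45, Vom2r58, Vom2r11, Vom1r84, Vom1r49 and Vom1r71. Vom1r45 read -5.95, -6.32 and -6.07 in sham and -6.91, -6.96 and -6.88 in OVX. Vom2r58 read -5.93, -6.29 and -6.05 against -6.87, -6.92 and -6.85, and Vom1r84 read -5.81, -6.20 and -5.90 against -6.80, -6.79 and -6.77. Sham replicate 2 was lowest of its group in each of these 3. It was highest of its group in Vom1r69 (-6.02, -5.83 and -5.99), Vom1r82 and Vom2r13, which were also among the 20.

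The scanner files hold, beside the processed signal on which levels rest, the signal after subtraction of the local background alone. For these 20 receptors it was at or below 0 in 55 of 60 sham spots and in 43 of 60 OVX spots, although the processed signal was never below 1.29 there. Its median over the 20 was -2.23, -1.93 and -4.08 on the sham arrays and -1.07, -0.93 and -1.44 on the OVX arrays, higher in OVX, while the median of the processed signal was 2.96, 2.43 and 3.43 in sham and 1.79, 1.47 and 2.60 in OVX. The direction of these receptors in OVX females thus differed between both signals. Among all 3776 features detected on no female array, the median difference was -0.55 and 28.0% were called lower, and among the 54 receptors of that class the median was -0.75 with 20 called lower.

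**Figure D4:**
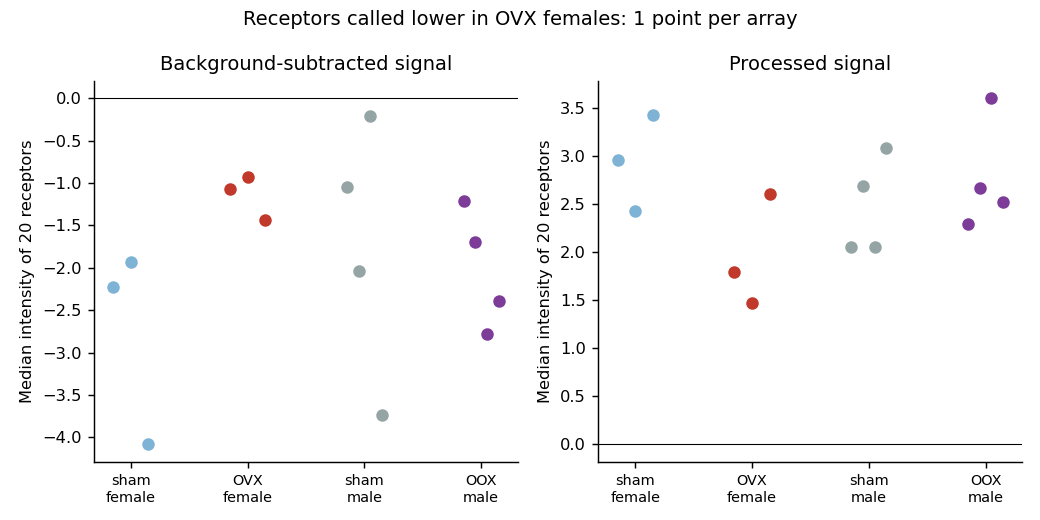
Median intensity of the 20 receptors called lower in OVX females, 1 point per array by group (x axis), for the background-subtracted signal (left) and the processed signal (right), both in linear units. The background-subtracted medians are below 0 on all 14 arrays and nearer to 0 on the OVX arrays than on the sham female arrays.

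The 21 receptors detected on every female array had a median difference of 0.31, with 18 above 0 and 3 below, against a median of -0.05 for the 19885 features of that class. Receptors on all 14 arrays were dimmer, with a median signal of -0.77 against 1.88 for all features detected there. Among those detected on some female arrays, the median difference was 0.40 for receptors and 0.55 for all features. The part of signal level was not tested. Of the 21 receptors, 2 were called higher (Vom1r73 and Vom2r54) and 0 lower. The others did not pass, among them Vom1r23, Vom2r8 and Vom2r18, whose groups did not overlap. How many of all features had groups without overlap was not counted. Vom1r23 read 1.22, 1.25 and 1.18 in sham and 1.74, 1.80 and 1.53 in OVX (difference 0.47, SE 0.13, adjusted p = 0.0795). Vom2r8 read -2.21, -2.62 and -2.32 against -1.74, -1.91 and -1.87 (0.54, SE 0.15, adjusted p = 0.0844). Vom2r18 went the other way, with -0.12, -0.49 and -0.28 against -0.61, -1.06 and -0.98 (-0.59, SE 0.18, adjusted p = 0.106). In this sample the female groups can also not be fully told apart from scan day, since all sham female arrays and only OVX replicate 1 were scanned on the first of 2 days. With scan day as a block 1 receptor was called and with slide as a block 0, and leaving out single arrays gave 0 calls for 5 of the 6 arrays and 35 without sham replicate 2.

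**Figure D5:**
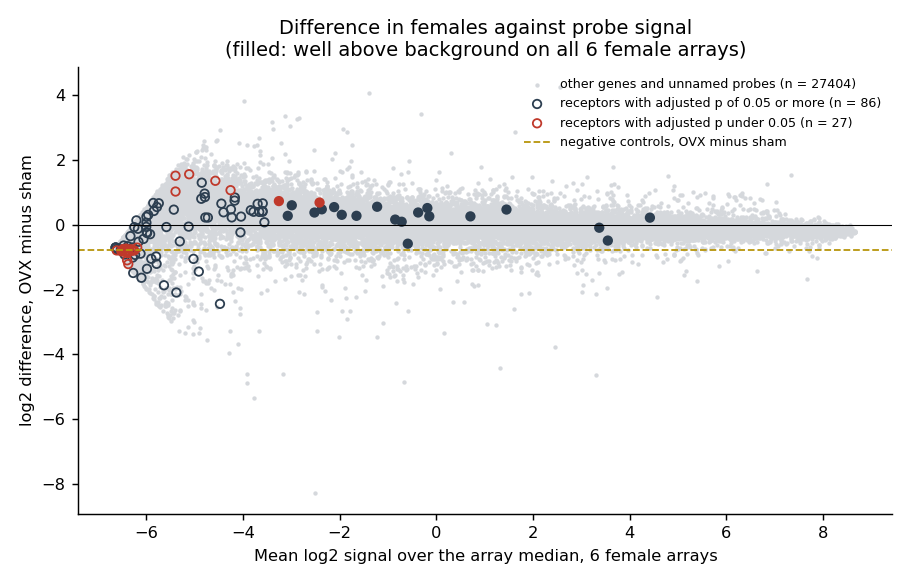
Difference in log2 signal, OVX minus sham females (y axis), against the mean log2 signal of the 6 female arrays (x axis) for receptors (circles) and all other features (grey). Receptors called lower cluster at the dim end beside the dashed line of the negative controls (-0.79), and the 2 filled red points are Vom1r73 and Vom2r54.

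OOX was compared with sham males in the same way. At an adjusted p under 0.05, 0 of the 113 receptors were called, against a background of 0.0581% of all features higher and 0.00363% lower (0.0618% in both directions). At an unadjusted p under 0.05, 6 receptors were higher (5.31%) and 4 lower (3.54%), against 4.52% and 3.17% of all features (7.69% in both directions). The methods' t-test after Benjamini-Hochberg adjustment also called 0 receptors. The median difference of the receptors was 0.06, against 0.01 for all features. On every OOX array and no sham male array, 0 receptors were well above background (0.0945% of all features), and 0 showed the opposite (0.00363%).

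Among receptors detected on all male arrays, Vom2r54 read -4.10, -3.81, -3.36 and -3.51 in sham males and -2.83, -3.21, -2.84 and -3.33 in OOX. All 4 OOX arrays lay above the sham arrays, with a difference of 0.64 (SE 0.20, adjusted p = 0.553). Vom1r100 read -2.25, -1.80, -1.80 and -1.37 in sham and -2.22, -2.45, -2.53 and -2.75 in OOX, where 1 array of each group overlapped (difference -0.68, SE 0.21, adjusted p = 0.518). The other receptors with the smallest p in males were dim. Vom2r53 read -5.79, -5.40, -5.99 and -5.97 in sham and -5.38, -4.19, -3.99 and -5.20 in OOX, without overlap and well above background on 1 array (SE of the difference 0.33, adjusted p = 0.522). Vom1r101, Vom2r25 and Vom1r82 were well above background on no male array, so no difference is given (adjusted p of 0.648, 0.488 and 0.587). Vom2r19 differed by 0.49 (SE 0.22, adjusted p = 0.648), and the fitted difference of its second probe, detected on no array, was -1.36, so that the probes had opposite signs. Vom1r73 differed by 0.22 (SE 0.20, adjusted p = 0.910).

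Whether receptors responded differently in males and females was tested as the OOX effect minus the OVX effect over all 14 arrays. No receptor passed (0 of 113, against 0.142% of all features higher and 0.0872% lower, 0.229% in both directions). At an unadjusted p under 0.05 limma gave 25 receptors (22.1%), 19 higher (16.8%) and 6 lower (5.31%). Of all features 6.01% were higher and 5.66% lower, 11.7% together. Vom1r90, Vom2r1, Vom2r70, Vom1r15 and Vom1r101, among the 19, were detected on no array. The median level of receptors detected on no array shifted by -0.74 in females and -0.11 in males. The part of this shift in the 19 was not tested. Vom1r44 had the smallest p, with -1.79 (SE 0.43, adjusted p = 0.142), and was detected on 2 of 3 OVX and no sham female arrays and on 3 of 4 sham and 2 of 4 OOX male arrays. Vom1r100 differed by -1.16 (SE 0.29, adjusted p = 0.180), with -2.67, -2.50 and -2.65 in sham females and -1.75, -2.37 and -2.27 in OVX, higher after surgery in females and lower in males. Vom2r18 differed by 0.82 (SE 0.21, adjusted p = 0.190), lower in OVX and, at -0.88, -0.61, -0.86 and -0.76 in sham against -0.54, -0.79, -0.46 and -0.37 in OOX, higher in males. Its second probe, detected on 1 array, differed by -0.65 in females and -0.30 in males, so that the probes had opposite signs in males. Vom1r8 differed by -0.95 (SE 0.27, adjusted p = 0.232). Vom2r38, which was detected on no array and whose OVX replicate 3 was dropped as an outlier spot, is given no difference (adjusted p = 0.250).

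Some receptors were high on single arrays. A signal at least 3 log2 units above the receptor's own median was seen in 13 of the 113, all among the 92 not detected everywhere (14.1%, against 11.9% of genes of that class). The examples here were chosen after their values were seen. Vom2r62 read 0.06 on sham female replicate 1 with a median of -6.68, and Vom2r6 read -0.02 on OOX replicate 3 with a median of -6.48. Vom2r25 read -0.78 on sham female replicate 3 with a median of -6.25, Vom2r2 read -0.55 on sham male replicate 2 with a median of -5.12, and Vom2r27 read -1.42 on OVX replicate 1 with a median of -6.54. Vom1r71 was high on 2 arrays, OOX replicate 4 (-1.39) and sham male replicate 3 (-1.71). Every such spot was well above background, and each receptor had 1 spot per probe, so that a high array has no repeat on the array.

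Most measured genes that carry the receptor signal onward were detected, as were most named genes. Of 12 genes of vomeronasal transduction, 10 were measured and 8 were detected on all 14 arrays, against 75.4% of all named genes. Of the 10, 1 was called higher in OVX (2.73% of all features) and 0 in OOX (0.0581%). Trpc2, the cation channel of the pathway, and Ano2, a chloride channel, had no matched probe. Gnai2, the V1R G protein subunit, had a mean signal of 7.68 ± 0.07 (SD, n = 3) in sham females, 7.78 ± 0.29 (n = 3) in OVX, 7.66 ± 0.15 (n = 4) in sham males and 7.66 ± 0.07 (n = 4) in OOX. Gnao1, the V2R subunit, varied more, at 0.60, 1.85 and 1.94 in sham females, 0.67, 1.17 and 1.41 in OVX, 3.02, 0.71, 0.95 and 0.56 in sham males and 1.14, 2.05, 1.36 and 0.63 in OOX. Both subunits are used by many other cell types, neurons and epithelia among them.

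Plcb2, a phospholipase C, read -4.40, -4.28 and -4.49 in sham females, where it was detected on no array, and -3.43, -3.57 and -3.58 in OVX, where it was detected on all 3. It was at least 1.34-fold higher in OVX (adjusted p = 0.0401) and differed by 0.17 in males (SE 0.27, adjusted p = 0.959). The female call held in 7 of 19 alternatives, with a difference down to 0.0391 and an adjusted p up to 0.975. The G protein subunits Gnb1 and Gng8 differed by -0.06 and 0.29 in females and by -0.12 and 0.23 in males, with adjusted p of 0.840, 0.487, 0.959 and 0.940. The IP3 receptor Itpr3 differed by 0.53 in females (adjusted p = 0.266) and 0.01 in males (0.996), and adenylyl cyclase Adcy2, detected on 13 arrays, by -0.29 (0.619) and 0.48 (0.959). The channels Ano1, Kcnj3 and Kcnn3 differed by 0.13, -0.34 and 0.05 in females, with adjusted p of 0.769, 0.549 and 0.882, and by 0.06, -0.25 and 0.10 in males, with 0.979, 0.793 and 0.959.

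Markers of the vomeronasal neuron itself gave a mixed picture. Of 8 genes, 5 were measured, 1 was detected on all 14 arrays and 2 (Omp and Nrp2) were called lower in OVX, against 4.47% of all features. Omp, the olfactory marker protein of mature sensory neurons, was detected on no array, at -5.93, -6.33 and -5.91 in sham females and -6.76, -6.91 and -6.79 in OVX, beside the negative controls. Its fitted difference of -0.77 (adjusted p = 0.0418) lay next to the control shift of -0.79, and no fold is given. Nrp2, a receptor for axon guidance cues that many tissues express, was detected on all female arrays and read -2.50, -2.27 and -2.75 in sham and -3.50, -3.47 and -3.63 in OVX, a fall by 1.03 (SE 0.16, adjusted p = 0.0401). This call held in 7 of 19 alternatives, with differences of -1.27 to -0.36 and an adjusted p up to 0.534. Tfap2e, a transcription factor of basal V2R neurons, was detected on all 14 arrays and differed by 0.04 in females (adjusted p = 0.885) and 0.08 in males (0.960). Ncam2 and Robo2, adhesion and guidance receptors, differed by -0.56 and -0.64 in females (adjusted p of 0.588 and 0.426).

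Of 9 genes of olfactory neurons of the main epithelium, all measured, 4 were detected on every array and 3 on none. In OVX 1 of the 9 was called higher (2.73% of all features). It was Cngb1, a subunit of the olfactory cation channel (0.95, adjusted p = 0.0401), well above background on 3 OVX arrays against 1 in sham. This call held in 7 of 19 alternatives, with a difference down to 0.17 and an adjusted p up to 0.771. The CP epithelium was present throughout, with its 10 markers well above background on all 14 arrays at mean signals of 5.29 to 8.44. Of these, 4 (Ttr, Folr1, Kcnj13 and Enpp2) were saturated on all 14 arrays, Otx2 on 13 and Aqp1 on 4, so that differences in them could not be seen, and 0 of the other 4 were called in either sex. No receptor probe was saturated on any array (0 of 113). Of 11 neuron markers 0 were called, with a median difference of -0.69 in females, and their summed log2 signal ran from 4.22 to 5.84 in sham females, 4.43 to 5.02 in OVX, 3.95 to 6.65 in sham males and 4.56 to 5.63 in OOX. Of 8 spermatid genes 5 (Tnp1, Tnp2, Smcp, Crisp2 and Hmgb4) were called higher in OOX (0.0581% of all features) and 0 in OVX (2.73%), where the median difference was 2.66. Sham female replicate 3 stood apart in these genes, with Tnp1 at -4.62, -4.73 and -0.48 in sham and -0.44, -0.78 and -0.01 in OVX. On the slide that held this array and an OVX array, Tnp1 differed by 0.04 and Crisp2 by -0.11. Without this array 0 receptors were called in OVX, as was so for every other female array left out except sham replicate 2. The part of other cell types in the receptor signals was not tested, and in pooled tissue fewer cells of a type cannot be told from less RNA per cell.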

How the data were processed

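CP RNA was hybridised to 1-colour (Cy3) Agilent rat arrays, 1 pool of 3 animals on each. Per the file headers, the authors scanned 14 arrays with Agilent Feature Extraction 10.5.1.1, and the deposited intensity of each spot is its processed signal, corrected for background and not scaled between arrays. The deposited value table, which the authors made, holds log2 values of the same arrays and served as an alternative. Control spots and spots marked as outliers were left out, log2 intensity was taken and the median of the rat probes of each array subtracted, and each gene was read from its brightest probe, named by accession through a RefSeq table (GRCr8). Probes without a name (12363) stayed in the fits. Groups were compared within each sex, without covariates, by lmFit and eBayes of limma 3.58.1 (R 4.3.3), calls were made at a Benjamini-Hochberg adjusted p under 0.05 over 27517 features, and the difference between the sexes was fitted over all arrays. The fit was tested on simulated data, with independent normal noise for each feature and no shift of dim signals between groups. The shares that follow therefore do not describe the fit for receptors near background. Of features changed 2-fold, 34%, 36% and 28% were called in the female, the male and the between-sex comparison (27446, 27507 and 27439 features simulated), and of those changed 5-fold, 71%, 91% and 76%. Sums and counts were made with pandas 2.3.3 in Python 3.11.15.

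The members and gene lists were chosen with earlier results of these data known. The text names the 15 brightest receptors detected on every array, up to 8 called per sex and direction (or the 3 with the smallest p), those detected on every array of 1 group and none of the other, 2 receptors of the study's gene tables, the 5 with the smallest p between the sexes and genes of the lists. Alternatives changed the scaling, the background correction and the treatment of dim probes and of outlier spots, fitted the 4 groups together, used array weights or a block (slide, scan day or replicate number), took the value table, the mean over probes or the methods' t-test, or left out each array. Normexp used the median spot signal, since no mean signal is in the columns used here. The methods call the pools biological replicates and give 3 a group, while the males have 4 arrays a group. Whether pools share animals is not stated, and p-values measure the spread between these pools. The number of arrays limits precision, and dim probes have only a bound.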

Additional observations from a re-analysis of the deposited data

Results flagged for a closer look

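Of 90 sets of 4 male arrays examined, 5 held an array that stood apart from the other 3 by more than Dixon's limit, and chance flags about 1 in 20 sets. Vom1r71 read -1.71 on sham male replicate 3, against -6.35 to -5.93 on the others, and -1.39 on OOX replicate 4, against -6.72 to -6.27. Vom2r12 read -1.81 on OOX replicate 3, below the -1.03 to -0.90 of the other OOX arrays. Vom1r73 read -3.04 on sham male replicate 1, against -2.37 to -2.25. Vom1r104 read -2.94 on OOX replicate 3, above -3.37 to -3.35.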

How the results depend on the processing

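The 27 receptors called in OVX females depended on the processing. The count was 2 with all groups in 1 fit, 2 among the 38 receptors kept by the filter on dim probes, 1 with quantile normalization, 1 with scan day as a block, and 0 with slide as a block, with normexp and an offset of 50 or by the methods' t-test. It was 0 to 35 when single arrays were left out. The replicate block gave 0. The numbers do not pair the pools, since arrays of the same number deviated from their group means with correlations of -0.02 to 0.14 in females and -0.31 to 0.14 in males. Vom1r73 and Vom2r54 passed with none of the 3 blocks.

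The calls of Plcb2, Nrp2 and Cngb1 in females each held in 7 of 19 alternatives. In males 0 receptors were called under every alternative, and between the sexes 1 (Vom2r18) with scaling to the 75th percentile and 0 under every other alternative. The median difference in females moved from -0.08 to -0.43 with scan day and -0.37 with slide as a block, and in males from 0.06 to -0.20 with normexp. With the scanner's looser test of a positive and significant signal, 43 receptors in place of 21 were detected on all 14 arrays.

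Signs turned with normexp for Vom2r30 (-0.0122), Vom1r104 (-0.0135), Vom2r51 (-0.0955), Vom2r63 (-0.0313), Vom2r19 (-0.0299) and Vom2r28 (-0.0157) in females, for Vom2r54 (-0.0213), Vom2r53 (-0.11), Vom1r101 (-0.13) and Vom2r19 (-0.13) in males and for Vom2r38 (-0.21) between the sexes. They turned with quantile normalization for Vom2r51 (-0.13) and Vom2r19 (-0.0823) in females, with the mean over probes for Vom2r63 (-0.79) in females and Vom2r19 (-0.44) in males, and with the value table for Vom2r38 (-0.35). The cause was not tested. Scan day could not be used as a block in males, whose arrays share 1 day. Dim signals limit all of these values.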

Other observations

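Of 8 carriers and ligands of the vomeronasal system 6 were measured and 0 were detected on all 14 arrays. Obp1f, an odorant-binding lipocalin, read -5.82, -5.32 and -5.63 in sham females and -4.71, -4.15 and -4.54 in OVX, where it was detected on 1 array, and was called higher (adjusted p = 0.0401) with no fold, since OVX did not clear the detection limit. Obp2b was called lower (adjusted p = 0.0401) but was detected on no array. Mup4, Mup5 and Lcn9 were each detected on OVX replicate 3 alone, at -3.71, -4.22 and -3.07, against at most -4.87 for any of them elsewhere.

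Of 6 formyl peptide receptors, a family of which some members serve vomeronasal neurons, Fpr1 alone was measured. It is known from leukocytes and read -3.61, -3.48 and -3.77 in sham females and -3.18, -2.97 and -2.50 in OVX, without overlap (difference 0.73, SE 0.20, adjusted p = 0.0858), with 0.54 in males (SE 0.22, adjusted p = 0.648).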
